A study of Mus musculus with 59 samples.

Results

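The cytochrome P450 genes of families 1 to 3 were taken as every Ensembl gene whose symbol is Cyp1, Cyp2 or Cyp3 followed by a subfamily letter and a gene number, with pseudogene symbols ending in -ps left out. The rule found 60 genes in 16 subfamilies among 55273 features counted per library. The Cyp2c subfamily held 15 of them, Cyp3a held 9, Cyp2d and Cyp2j held 8 each, Cyp2b held 5, Cyp2a held 4 and Cyp1a held 2. The Cyp1b, Cyp2e, Cyp2f, Cyp2g, Cyp2r, Cyp2s, Cyp2t, Cyp2u and Cyp2w subfamilies had 1 gene each. In liver 51 members had at least 1 count and in kidney 46 did. The members with 0 counts in each of the 22 libraries used here were Cyp3a44, Cyp3a41b, Cyp3a41a, Cyp2w1, Cyp2c66 and Cyp2b19.

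The study labelled RNA with an approach its title calls iTag, isolated the labelled RNA by pull-down and sequenced it beside the input RNA of the same kind of tissue. The libraries used here are those the labels call mRNA, from liver and kidney, 22 of the 59 in the series. All mice were male, 12 weeks old, and had eaten a high-fat diet or a low-fat control diet for 2 weeks. The liver had 3 input and 3 pull-down libraries per diet, and the kidney had 3 of each on high fat and 2 of each on low fat.

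Every group carried the same engineered alleles on an FVB.129P2 background. These were the targeted allele Cyp3a13tm1Ahs, the chromosome 5 deletion Del(5Cyp3a57-Cyp3a59)1Ahs, and the transgene Tg(APOE-CYP3A4)A1Ahs, which joins APOE sequences to human CYP3A4. No group without these alleles was included, so their effect on any gene cannot be read from these comparisons. The labels do not say in which cells RNA was tagged, nor whether each library of a group is a different animal. P-values therefore measure the spread between libraries, which may be technical.

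Cytochrome P450 enzymes of these families are haem proteins of the endoplasmic reticulum that insert oxygen into drugs, steroids, fatty acids and other small molecules, using electrons passed on by P450 reductase. They are the main oxidising enzymes of the hepatocyte, and many sit in clusters of recent duplicates with closely similar sequences. Nuclear receptors and the aryl hydrocarbon receptor switch several of them on: Cyp1a genes respond to the aryl hydrocarbon receptor, Cyp2b and Cyp2c genes to the constitutive androstane receptor, and Cyp3a genes to the pregnane X receptor. In kidney they are found mostly in the proximal tubule, where Cyp2j enzymes oxidise arachidonic acid.

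Total counts ranged from 3033702 to 4942158 in liver input, 3389320 to 4426392 in liver pull-down, 7970076 to 19645443 in kidney input and 3741335 to 13713002 in kidney pull-down. Pairs of libraries of the same group were compared by a chi-square test of their counts, where a mean of 1 per gene is counting noise alone. Liver input low-fat library 1 stood apart from its group, at 62.5 and 58.7 per gene against libraries 2 and 3, which were at 1.13 against each other. Liver input high-fat libraries 1 and 3 were nearly as close, at 1.18, while the remaining pairs within a liver group lay between 3.23 and 8.62. Both close pairs still differed beyond counting noise (chi-square p = 3.66e-19 and 7.35e-35) and were kept as separate libraries. Kidney input high-fat library 1 also stood apart, at 91.4 and 92.3 against 6.19 for the other pair. The low-fat pair, with no further library to compare, was at 46.9 in kidney input and 29 in kidney pull-down, while the kidney pull-down high-fat pairs lay between 5.68 and 10.3. Hepatocyte markers summed to at least 34880 CPM (counts scaled to a common library total) in every liver library and to at most 15.5 CPM in every kidney library. Kidney proximal tubule markers summed to at least 19450 CPM in every kidney library and to at most 347 CPM in liver.

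The promoters of the genes that the results turn on are shown first. Each window runs from 250 bases before to 50 bases after a transcription start in RefSeq's GRCm38.p6 annotation, 5′ to 3′ on the gene's strand. RefSeq windows were found for 52 of the 60 members. Cyp2c29, Cyp2c38 and Cyp2c39, which oxidise arachidonic or retinoic acid and lie next to each other on chromosome 19, are shown because their counts moved together with diet in liver. Capitals mark the 3 runs of at least 10 bases that all 4 windows share, TCAAATGGGC, TCAAGGGTAAAT and ATCTCTATCAA. The windows are chr19:39286835-39287134 on the + strand for Cyp2c29, chr19:39463026-39463325 on the - strand for Cyp2c38, and chr19:39347096-39347395 and chr19:39510572-39510871 on the + strand for the 2 starts of Cyp2c39.
Cyp2c29: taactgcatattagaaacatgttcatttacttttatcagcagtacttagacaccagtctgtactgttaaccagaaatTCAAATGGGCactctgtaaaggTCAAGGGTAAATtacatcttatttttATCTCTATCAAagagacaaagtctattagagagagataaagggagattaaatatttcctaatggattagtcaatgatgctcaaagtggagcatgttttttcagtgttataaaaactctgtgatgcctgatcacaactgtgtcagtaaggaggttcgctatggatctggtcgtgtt
Cyp2c38: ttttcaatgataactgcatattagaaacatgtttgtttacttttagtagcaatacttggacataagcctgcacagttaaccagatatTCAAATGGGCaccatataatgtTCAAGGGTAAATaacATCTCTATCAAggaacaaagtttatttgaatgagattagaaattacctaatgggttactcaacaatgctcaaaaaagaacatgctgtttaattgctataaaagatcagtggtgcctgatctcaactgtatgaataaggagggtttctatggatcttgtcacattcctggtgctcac
Cyp2c39, first start: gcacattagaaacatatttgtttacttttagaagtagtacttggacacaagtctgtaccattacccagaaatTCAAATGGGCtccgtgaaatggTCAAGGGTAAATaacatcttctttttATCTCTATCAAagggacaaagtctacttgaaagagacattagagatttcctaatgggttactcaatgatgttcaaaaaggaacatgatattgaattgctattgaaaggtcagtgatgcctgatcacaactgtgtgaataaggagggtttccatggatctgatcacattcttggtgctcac
Cyp2c39, second start: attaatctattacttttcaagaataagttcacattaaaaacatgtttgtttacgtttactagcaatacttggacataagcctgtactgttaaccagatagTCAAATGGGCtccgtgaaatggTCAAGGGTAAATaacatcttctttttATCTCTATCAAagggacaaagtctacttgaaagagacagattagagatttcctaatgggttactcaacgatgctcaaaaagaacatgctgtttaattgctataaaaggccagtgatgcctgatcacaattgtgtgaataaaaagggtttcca
Aligned over the window, Cyp2c29 was identical to Cyp2c38 at 70.8% of positions and to the first Cyp2c39 window at 75.7%, and Cyp2c38 matched that Cyp2c39 window at 78.1%. The second Cyp2c39 window was less alike, at 69% to Cyp2c29 and 72.9% to Cyp2c38. The windows of other members were not searched for the capitalised runs. The annotated spans of Cyp2c38 and Cyp2c39 overlap by 73548 bases on opposite strands. These are whole spans, and whether exons overlap was not tested. Whether the counting used the strand is not given in the sources used here, so how reads in that overlap were assigned is not known.

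Cyp3a25 and Cyp3a59 of chromosome 5 are shown because they are a close pair of promoters at one end of the engineered deletion. Capitals mark the 11 bases that differ between them. The windows are chr5:146009568-146009867 on the - strand for Cyp3a25 and chr5:146079008-146079307 on the + strand for Cyp3a59.
Cyp3a25: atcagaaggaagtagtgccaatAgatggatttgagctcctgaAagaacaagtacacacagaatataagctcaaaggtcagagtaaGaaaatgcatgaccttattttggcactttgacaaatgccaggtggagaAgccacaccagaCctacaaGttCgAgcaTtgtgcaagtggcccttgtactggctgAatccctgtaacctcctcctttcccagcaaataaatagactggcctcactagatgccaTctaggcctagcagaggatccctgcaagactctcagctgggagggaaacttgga
Cyp3a59: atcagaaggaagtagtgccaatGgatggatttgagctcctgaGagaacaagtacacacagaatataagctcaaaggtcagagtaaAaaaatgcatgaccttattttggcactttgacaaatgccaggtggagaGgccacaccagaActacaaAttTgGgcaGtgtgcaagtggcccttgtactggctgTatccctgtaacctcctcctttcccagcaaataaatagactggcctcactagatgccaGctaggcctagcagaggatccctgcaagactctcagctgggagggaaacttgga
The 2 windows were 96.3% identical, and Cyp3a57 with Cyp3a59 was at 90.8%. Among Cyp3a16, Cyp3a41a, Cyp3a41b and Cyp3a44 every pair was at 90.3% to 97%. The closest pairs of the other subfamilies were Cyp2b9 with Cyp2b13 at 99.3%, Cyp2a4 with Cyp2a5 at 97.7%, Cyp2c68 with Cyp2c69 at 91.1% and Cyp2d9 with Cyp2d11 at 84.5%. Promoter identity does not measure how alike the transcripts are, which was not tested, and how reads that match several genes were counted is not given in the sources used here. The counts of Cyp2a4 and Cyp2a5 went apart between tissues, as given below, although their promoters are this close. The sequence TATAAA, on either strand, was present in 28 of the 55 member windows (50.9%) and in 13.6% of all 32851 windows of that length. The C/EBP motif TTGCNNAA was present in 15 member windows (27.3%) and in 10.8% of all windows. The aryl hydrocarbon receptor core GCGTG was present in 10 member windows (18.2%) and in 32.4% of all windows. None of the 3 motifs contains another, and a match describes the sequence only.

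The Cyp3a genes, whose locus was engineered in every mouse, were checked before any comparison. In RefSeq's coordinates the span named by the deletion runs over chr5:145345149-146114978, from the first base of Cyp3a57 to the last of Cyp3a59. Besides these 2 genes it holds Cyp3a16, Cyp3a41b, Cyp3a41a, Cyp3a44, Cyp3a11 and Cyp3a25, so that Cyp3a13 was the 1 Cyp3a member outside it. Cyp3a13, the targeted gene, was still counted in every library, with 463, 296 and 719 counts in liver input on high fat and 17, 352 and 334 on low fat. In liver pull-down it had 505, 420 and 532 counts on high fat and 211, 304 and 319 on low fat. Its kidney counts ran from 7 to 98 in input and from 29 to 118 in pull-down. Reads were therefore still assigned to the targeted gene in every library, and which of its exons they fall on is not known from gene counts.

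Cyp3a59, at one end of the deletion, had 61, 32 and 90 counts in liver input on high fat and 1, 25 and 43 on low fat. Cyp3a57, at the other end, had 25, 33 and 58 counts in liver input on high fat and 1, 19 and 29 on low fat. Cyp3a25, which shares most of its promoter with Cyp3a59, had between 0 and 12 counts in each liver library. All these genes lie within the span that the strain name lists as deleted, and gene counts do not show from which sequence their reads came. Cyp3a11, the main drug-inducible Cyp3a enzyme of normal mouse liver, had 81, 98 and 111 counts in liver input on high fat and 0, 28 and 45 on low fat. Cyp3a16, known as a fetal form, had 572, 644 and 856 counts on high fat and 5, 389 and 356 on low fat. The library with the lowest count of each of these 5 tested Cyp3a genes was the low-fat library 1 that stood apart from its group. Human CYP3A4 was not analysed here.

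**Figure D1:**
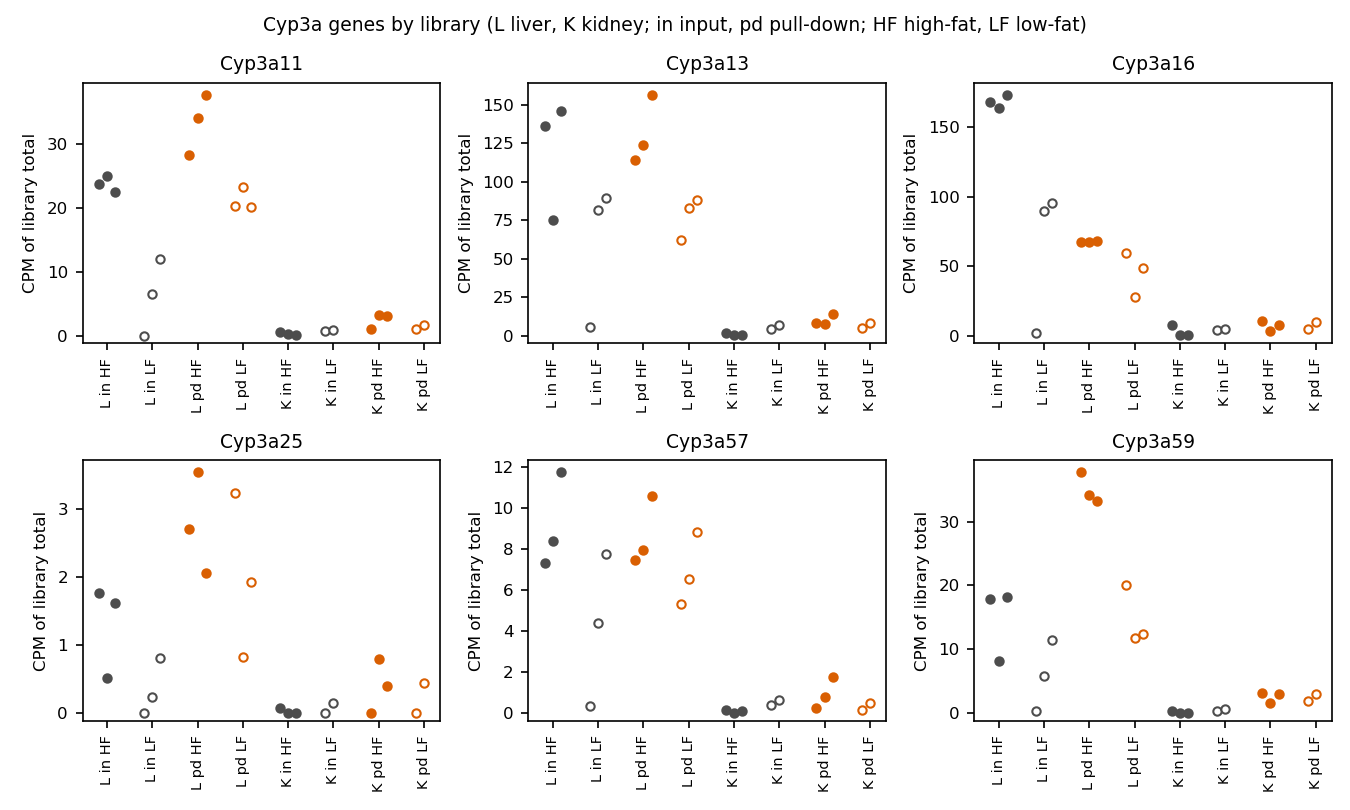
CPM of the library total (linear axes) of 6 Cyp3a genes in each liver and kidney library, with input in grey, pull-down in orange, and filled points for high fat and open points for low fat. The lowest open grey liver point in each panel is input low-fat library 1, which had 0 counts of Cyp3a11 and 17 of Cyp3a13.

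In liver input the members together took 1.99% ± 0.221 (SD, n = 6) of all counts, with a range from 1.58% to 2.13%. These are shares of counts, not scaled by transcript length, so they are not compared between genes as levels of transcript. Cyp2e1, which oxidises ethanol and acetone, took 0.822% ± 0.212 of the counts. The Cyp2c subfamily took 0.474% ± 0.0353, the Cyp2d subfamily 0.268% ± 0.0705 and Cyp2f2 0.132% ± 0.00936. The Cyp2a subfamily took 0.0961% ± 0.0100, Cyp2j took 0.0882% ± 0.0164 and Cyp1a took 0.0761% ± 0.00690. The Cyp3a subfamily took 0.0237% ± 0.0134, with a range from 0.000791% to 0.0373%. Its lowest value came from low-fat library 1. Cyp2u1, a fatty acid hydroxylase, took 0.00672% and Cyp2r1, the vitamin D 25-hydroxylase, took 0.00152%. The Cyp2b subfamily took 0.00107%, and Cyp1b1 took 0.000135%.

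Library values below are CPM after scaling by trimmed mean of M values (TMM) within a tissue. Cyp2e1 ranged from 5302 to 10900 CPM in the 6 liver input libraries, with a median of 8876. Cyp2c70, a bile acid hydroxylase specific to rodents, ranged from 1132 to 2069 CPM. Cyp2c29 ranged from 601 to 2820 CPM and split by diet. Cyp1a2, which oxidises caffeine and aromatic amines, ranged from 745 to 914 CPM. Cyp2f2, which activates naphthalene, ranged from 1317 to 1876 CPM. The lowest Cyp2e1 value and the highest Cyp2f2 value both came from low-fat library 1.

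**Figure D2:**
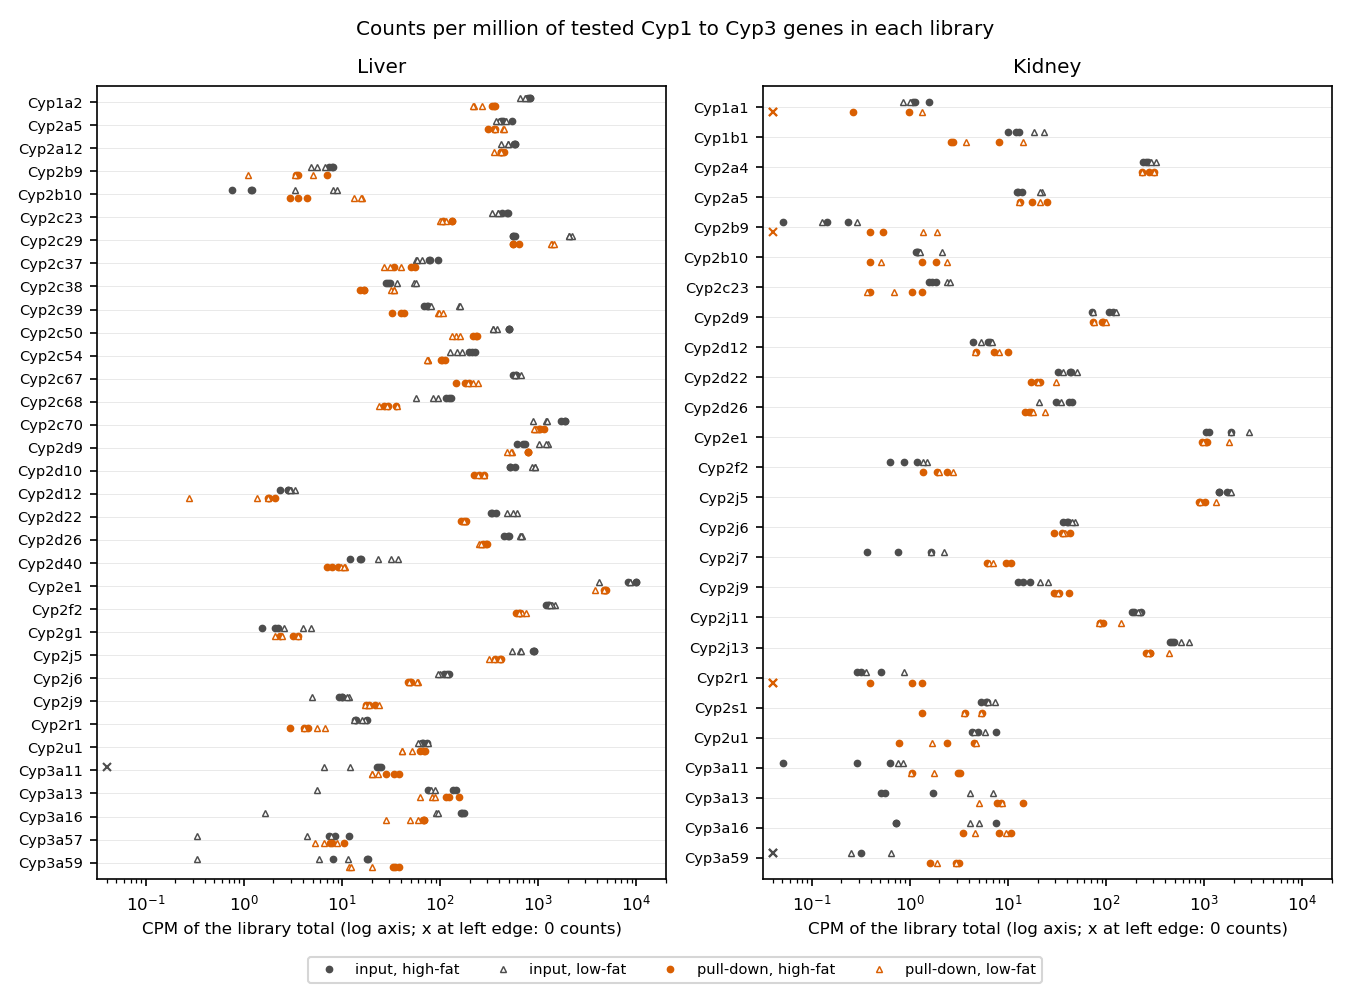
CPM of the library total for each tested gene of families 1 to 3 in each liver (left) and kidney (right) library, on a log axis, with fraction by colour and diet by symbol. Cyp2c29 and Cyp2b10 separate by diet in liver input and pull-down, as do other members such as Cyp1a2, Cyp2c38, Cyp2c39 and Cyp2c50.

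In kidney input the members took 0.469% ± 0.107 (SD, n = 5) of all counts. The Cyp2j subfamily, fatty acid epoxygenases, took 0.244% ± 0.0320, Cyp2e1 took 0.175% ± 0.0722, Cyp2a took 0.0289% ± 0.00353 and Cyp2d took 0.0180% ± 0.00405. The Cyp2c subfamily took 0.000282%, Cyp3a took 0.000747% and Cyp1a took 0.000113%. Cyp2e1 was at 2065, 1274 and 1154 CPM on high fat and at 2091 and 2746 CPM on low fat. Cyp2j5, an epoxygenase of the proximal tubule, was at 1882, 1601 and 1570 CPM on high fat and at 2003 and 1811 CPM on low fat. Cyp2j13 ranged from 500 to 672 CPM, Cyp2a4, a testosterone hydroxylase, from 267 to 317 CPM, and Cyp2j11 from 207 to 253 CPM. Cyp2d9 ranged from 79.1 to 132 CPM and Cyp2a5 from 13.7 to 24.3 CPM. Kidney counts of the families thus fell mostly on a few Cyp2j, Cyp2e, Cyp2a and Cyp2d genes.

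Between tissues, 40 of the 41 members tested differed in input level by edgeR's quasi-likelihood test, with 32 higher in liver and 8 higher in kidney. Of all 13724 genes tested, 62.9% differed, with 29.4% higher in liver and 33.5% higher in kidney. The median of the members was 5.20 on the log2 scale, liver minus kidney, and that of all genes was -0.05. Tissue and library batch cannot be told apart in this comparison, and in bulk tissue fewer cells of a type and less RNA per cell cannot be told apart either. Fitted folds of single genes are left out where a group had 3 counts or fewer. The members' median includes 19 such genes.

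All 10 tested Cyp2c genes were higher in liver. Cyp2c23, an arachidonic acid epoxygenase, was higher by 8.08 ± 0.19 on the log2 scale (edgeR adjusted p = 5.94e-19). Cyp2c50 had 10105 counts over the 6 liver input libraries and 0 over the 5 kidney input libraries, a count that allows at most 0.0440 CPM. Cyp1a2 likewise had 17914 counts in liver input and 0 in kidney input. Cyp2f2 was higher in liver by 10.59 ± 0.23 and Cyp2e1 by 2.61 ± 0.21 on the log2 scale, the latter a 6.12-fold difference.

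The genes that were higher in kidney were Cyp1b1, Cyp2a4, Cyp2s1 and 5 Cyp2j genes. Cyp2j13 had 14 counts over the liver input libraries and 35743 over the kidney ones, and Cyp2j11 had 2 and 14183. Cyp2a4 had 11 counts in liver input and 18549 in kidney input, whereas Cyp2a5, its close copy and the coumarin hydroxylase, was higher in liver by 5.15 ± 0.20. Cyp2j5 and Cyp2j9 were counted well in both tissues and differed less, at -0.73 ± 0.12 and -0.51 ± 0.17, liver minus kidney. Cyp2j6 went the other way, at 1.80 ± 0.12. Cyp1b1, an enzyme of tissues outside liver that oxidises oestradiol, was at -3.08 ± 0.42 (edgeR adjusted p = 1.34e-06). Cyp2d12 was the one member tested that did not pass, at -0.61 ± 0.27 (edgeR adjusted p = 0.0568).

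In the liver pull-down, 31 of the 34 members tested passed edgeR's test against input, with 27 lower and 4 higher. Of all 10865 genes tested 73.8% passed, 36.1% lower and 37.7% higher, and the median change was -1.08 on the log2 scale for the members and 0.02 for all genes. The members' share of counts was 1.12% ± 0.0317 (n = 6) in the pull-down, against 1.99% in input. All 10 tested Cyp2c genes and all 6 tested Cyp2d genes were lower, with medians of -1.17 and -1.37 on the log2 scale.

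Cyp1a2 was at 745 to 914 CPM in input and 204 to 318 CPM in pull-down, and fell by 1.66 ± 0.08 on the log2 scale. Its 2 fractions did not overlap. Cyp2c23 was at 392 to 541 CPM in input and 92.4 to 118 CPM in pull-down, and fell by 2.10 ± 0.09. Cyp2e1 was at 5302 to 10900 CPM in input and 3684 to 4570 CPM in pull-down, and fell by 1.06 ± 0.12. The fractions of Cyp2c23 and Cyp2e1 were also separate in all 12 libraries. Among the rest, Cyp2r1 fell by 1.97, Cyp2j6 by 1.35, Cyp2f2 by 1.26, Cyp2j5 by 1.25 and Cyp2b9 by 1.07. The smallest changes that passed were those of Cyp2a5 at -0.48, Cyp2c29 at -0.53, Cyp2u1 at -0.56 and Cyp2a12 at -0.59.

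The 4 genes that were higher in the liver pull-down were Cyp2b10, Cyp2j9, Cyp3a11 and Cyp3a59. Cyp2b10, the standard target of the constitutive androstane receptor, was at 1.29, 0.851 and 1.33 CPM in input on high fat and at 4.20, 8.15 and 8.90 CPM on low fat. In pull-down it was at 2.51, 3.91 and 3.15 CPM on high fat and at 14.8, 15.3 and 12.9 CPM on low fat. Its pull-down exceeded input within each diet, and it rose by 1.19 ± 0.24 on the log2 scale (edgeR adjusted p = 0.000612).

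Cyp2j9, a fatty acid hydroxylase described in mouse brain, was at 6.30 to 11.9 CPM in input and 15.1 to 22.2 CPM in pull-down, and rose by 0.79 ± 0.16 (edgeR adjusted p = 0.000593). Its 2 fractions did not overlap, while Cyp2j5 and Cyp2j6 fell. Cyp3a59 rose by 1.03 ± 0.34 (edgeR adjusted p = 0.0157) and Cyp3a11 by 0.88 ± 0.33 (edgeR adjusted p = 0.0285), with overlapping fractions, and the call of Cyp3a11 ended in 7 of 20 alternative settings. Cyp3a16 fell by 1.10 ± 0.46 (edgeR adjusted p = 0.0446), and this call ended in 16 of 20 alternative settings. Cyp2g1, Cyp3a13 and Cyp3a57 did not pass, at -0.16, 0.06 and 0.06. Without low-fat input library 1, all 31 calls were kept and Cyp3a25 was added at 1.28.

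Most marker lists of the cell types a liver sample can hold were lower too. All 9 tested hepatocyte markers, 10 of 10 endothelial, 9 of 9 macrophage and 8 of 8 stellate cell markers were lower in the liver pull-down, with medians of -1.75, -2.15, -1.79 and -1.94. Of 2 cholangiocyte markers tested, 1 was higher and 1 lower. Pericentral hepatocyte genes split into 4 higher and 4 lower of 9, with a median of -0.03, and periportal genes into 3 higher and 6 lower of 10, with a median of -0.52. Their part in the members' result was not tested.

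**Figure D3:**
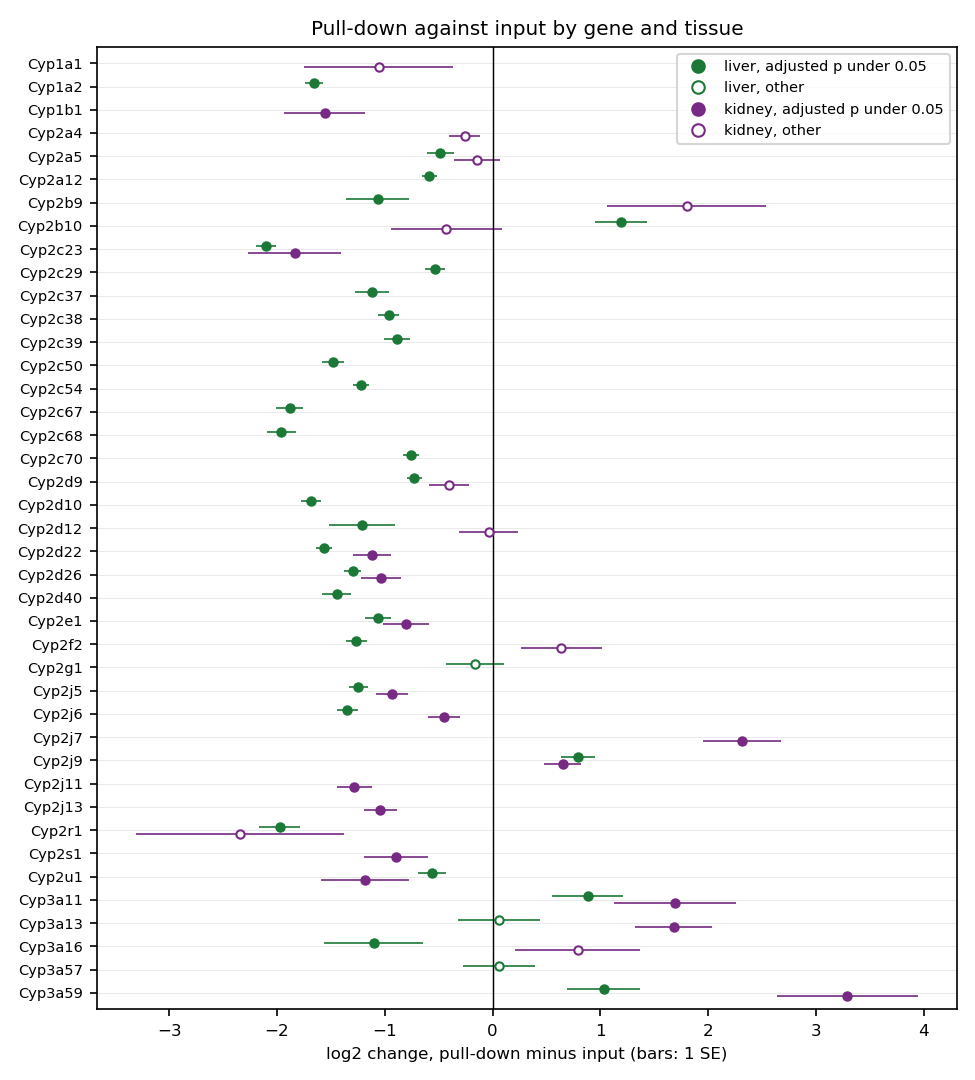
Log2 change of pull-down against input for each tested gene in liver and kidney, with bars of 1 SE and filled points for an edgeR adjusted p under 0.05. Most points lie below 0, with Cyp2j9, Cyp3a11 and Cyp3a59 above 0 and filled in both tissues.

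In the kidney pull-down, 16 of the 26 members tested passed edgeR's test, 11 lower and 5 higher, with a median of -0.44 on the log2 scale. Of all 15023 genes tested, 53% passed, 26.4% lower and 26.6% higher, with a median of 0.01. Cyp2j5 was at 920, 842 and 790 CPM on high fat and 1216 and 851 CPM on low fat in pull-down, below every input library, and fell by 0.94 ± 0.15 (edgeR adjusted p = 0.000291). Cyp2j11 fell from 207 to 253 CPM in input to 76.2 to 131 CPM in pull-down, by 1.29 ± 0.16. Cyp2j13 fell by 1.04 and Cyp2j6 by 0.45. The Cyp2j genes best counted in kidney were thus lower in its pull-down.

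Cyp2j7 and Cyp2j9 went the other way. Cyp2j7, annotated as a pseudogene, was at 0.409 to 2.16 CPM in input and 5.47 to 9.57 CPM in pull-down, and rose by 2.31 ± 0.36 (edgeR adjusted p = 0.000218). Cyp2j9 was at 14.2 to 24.5 CPM in input and 25.9 to 39.7 CPM in pull-down, and rose by 0.65 ± 0.17 (edgeR adjusted p = 0.00671). For both genes every pull-down library was above every input library.

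The other 3 genes higher in the kidney pull-down were Cyp3a genes. Cyp3a59 had 4, 0, 0, 2 and 9 counts in the kidney input libraries and 12, 6, 15, 11 and 40 in the pull-down libraries, and rose by 3.29 ± 0.66 (edgeR adjusted p = 0.00115). Cyp3a13 rose by 1.68 ± 0.36 and Cyp3a11 by 1.69 ± 0.57, at input levels under 7 CPM. Cyp3a16 did not pass, at 0.79. Outside Cyp2j and Cyp3a, Cyp2c23 fell by 1.83, Cyp1b1 by 1.56, Cyp2u1 by 1.18, Cyp2d22 by 1.12, Cyp2d26 by 1.04, Cyp2s1 by 0.90 and Cyp2e1 by 0.80. Of the kidney markers, 5 of 13 for proximal tubule and 9 of 10 for distal nephron were lower in pull-down and 0 were higher, and their part in these results was not tested.

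The pull-down change differed between tissues for 7 of 41 members, all with a lower value in liver, against 12.7% of all genes tested (8.94% lower and 3.75% higher in liver). The members' median was -1.06 on the log2 scale and that of all genes was -0.19. Of the 41 members, 22 had a group with 3 counts or fewer, where a fitted change is no measure, and the median includes them. Cyp2f2 was at 1317 to 1876 CPM in liver input and 509 to 728 CPM in liver pull-down, and at 0.702 to 1.67 CPM in kidney input and 1.22 to 2.52 CPM in kidney pull-down. Its difference was -2.04 ± 0.26 (edgeR adjusted p = 2.47e-05). For Cyp2j6 the difference was -1.06 ± 0.16 (edgeR adjusted p = 0.000182), and it fell in both tissues, by 1.35 in liver and by 0.45 in kidney. The difference of Cyp2b9 was -3.00 ± 0.72 (edgeR adjusted p = 0.00854), at under 2 CPM in every kidney library. Cyp3a59, Cyp3a13, Cyp2d12 and Cyp2d22 differed by -2.37, -1.79, -1.35 and -0.61. The calls of Cyp3a13, Cyp2d12, Cyp2d22 and Cyp3a59 ended in 24 of 30, 23 of 29, 16 of 30 and 14 of 30 alternative settings.

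In liver input, 16 of the 34 members differed between diets by edgeR's test, 7 higher and 9 lower on high fat. Of all genes tested, 22.5% differed, 8.87% higher and 13.6% lower. The median change was 0.18 on the log2 scale for the members and -0.06 for all genes. With the replicate number as a block, 0 of the 16 calls were kept and 0.0884% of all genes passed; the numbers were not shown to pair these libraries. None of the 16 calls held under every alternative run. Hepatocyte markers summed to 57610 to 64160 CPM on high fat and 88420 to 105600 CPM on low fat in these libraries. Endothelial markers summed to 187 to 198 against 259 to 367 CPM, macrophage markers to 122.7 to 132 against 166 to 185 CPM, and stellate cell markers to 359 to 372 against 468 to 520 CPM. Of these lists 2 of 9, 3 of 10, 2 of 9 and 1 of 8 tested genes were lower on high fat and 0 were higher, and their part in the members' result was not tested. Cyp2c29 was at 640, 614 and 601 CPM on high fat and 2820, 2070 and 2075 CPM on low fat. The diets did not overlap, and Cyp2c29 fell by 1.91 ± 0.14 on high fat (edgeR adjusted p = 2.39e-06), a 3.76-fold difference. Cyp2b10, with the values given above, fell by 2.61 ± 0.37 (edgeR adjusted p = 0.000479), a 6.11-fold difference at under 9 CPM.

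The 2 neighbours of Cyp2c29 on chromosome 19 moved with it. Cyp2c39, a retinoic acid hydroxylase, was at 79.8, 83.9 and 74.9 CPM on high fat and at 102, 155 and 162 CPM on low fat, and fell by 0.81 ± 0.17 (edgeR adjusted p = 0.00562). Cyp2c38 was at 32.2, 31.5 and 34.0 CPM on high fat and at 45.8, 54.9 and 57.7 CPM on low fat, and fell by 0.70 ± 0.13 (edgeR adjusted p = 0.00262). In both genes all 3 low-fat libraries were above all 3 high-fat ones. The runs printed above were defined as shared by the windows of Cyp2c29, Cyp2c38 and Cyp2c39, so their presence there is no result about diet. The windows of other Cyp2c genes were not searched for them. How reads in the overlap of the Cyp2c38 and Cyp2c39 spans were assigned is not known.

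Further along the cluster the sign was the opposite. Cyp2c68, whose lowest coordinate lies 402 kb after that of Cyp2c29, rose by 0.67 ± 0.18. Cyp2c54, Cyp2c50 and Cyp2c70, from 751 to 866 kb, rose by 0.55 ± 0.11, 0.50 ± 0.14 and 0.75 ± 0.10. Cyp2c70 was at 2069, 1882 and 2061 CPM on high fat and 1132, 1205 and 1239 CPM on low fat. Its diets did not overlap, and its edgeR adjusted p was 0.000357. Cyp2c67, at 322 kb and so before Cyp2c68, did not pass, at -0.08. Cyp2c37, at 705 kb between Cyp2c68 and Cyp2c54, did not pass, at 0.48. Cyp2c23, 4718 kb away, did not pass either, at 0.34.

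**Figure D4:**
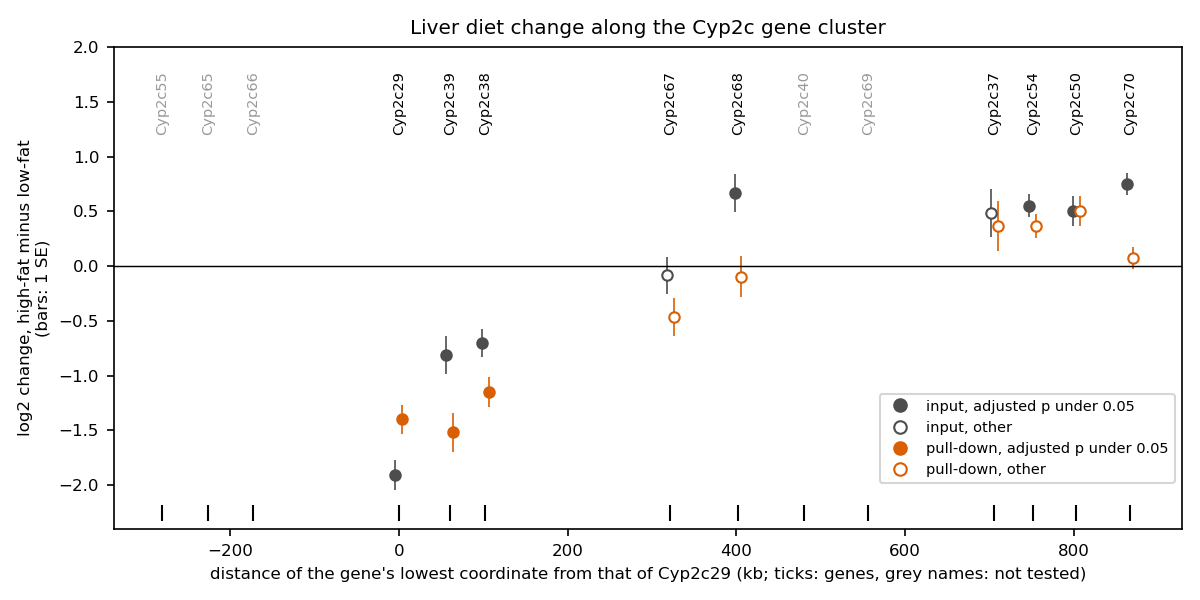
Log2 diet change (high fat minus low fat, bars of 1 SE) in liver input and pull-down of the Cyp2c genes against the distance of each gene's lowest coordinate from that of Cyp2c29, in kb. Cyp2c29, Cyp2c39 and Cyp2c38 lie below 0 with filled points in both fractions, and the genes from Cyp2c37 onward lie above 0; Cyp2c23 is outside the axis.

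The Cyp2d genes, relatives of the human debrisoquine hydroxylase, were lower on high fat in liver input. Of 6 tested, 5 fell and none rose, with a median of -0.68 on the log2 scale. Cyp2d9, a testosterone hydroxylase of male liver, was at 765, 680 and 812 CPM on high fat and 1280, 1277 and 1206 CPM on low fat, and fell by 0.74 ± 0.10 (edgeR adjusted p = 0.000370). Cyp2d10 was at 569, 580 and 642 CPM on high fat and 1087, 927 and 938 CPM on low fat, and fell by 0.72 ± 0.13. Cyp2d22 fell by 0.64, Cyp2d26 by 0.45 and Cyp2d40 by 1.06. No library of one diet overlapped the other diet in any of these 5 genes. The same held for Cyp1a2, Cyp2b9, Cyp2c23, Cyp2c37, Cyp2e1, Cyp2g1, Cyp3a16 and Cyp3a57, which did not pass. The share of all genes without overlap was not counted. Cyp2d12 did not pass, at -0.17.

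Outside Cyp2c and Cyp2d, 3 more members rose. Cyp2j5 was at 983, 994 and 991 CPM on high fat and 695, 661 and 678 CPM on low fat, and rose by 0.55 ± 0.12 (edgeR adjusted p = 0.00765). Cyp2a12, a bile acid hydroxylase of mouse liver, rose by 0.32 ± 0.10 (edgeR adjusted p = 0.0323), and this call ended in 9 of 21 alternative settings. Cyp3a11 was at 26.1, 27.8 and 24.7 CPM on high fat and 0, 6.52 and 12.1 CPM on low fat, and rose by 1.96 ± 0.50 (edgeR adjusted p = 0.0138).

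Without low-fat library 1, which stood apart, 27 members passed, 18 higher and 9 lower, with all 16 kept, and 42.2% of all genes passed (21.9% higher and 20.2% lower). Those added included Cyp3a16 at 1.05 ± 0.15, Cyp3a13 at 0.66 ± 0.20, Cyp3a59 at 0.98 ± 0.31 and Cyp3a57 at 0.82 ± 0.32, while Cyp3a11 was at 1.56 ± 0.23. It leaves libraries 2 and 3, the close pair, as the low-fat group. With both close pairs summed to 1 library each, 10 members passed, 4 higher and 6 lower, against 9.52% of all genes. Of the remaining single-gene subfamilies, Cyp2e1 was at 0.45 ± 0.17, Cyp2f2 at -0.14, Cyp2g1 at -0.90, Cyp2r1 at -0.02 and Cyp2u1 at 0.07, and none passed with all libraries.

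In the liver pull-down, 6 of 34 members differed between diets, 2 higher and 4 lower on high fat, against 5.95% of all genes (2.85% higher and 3.1% lower). The median was 0.01 for the members and -0.01 for all genes. The 4 that fell were also lower in input. Cyp2c29 was at 472, 490 and 570 CPM on high fat and 1300, 1321 and 1414 CPM on low fat, and fell by 1.40 ± 0.13 (edgeR adjusted p = 5.95e-05). Cyp2c39 was at 34.0, 28.7 and 38.3 CPM on high fat and 88.4, 95.7 and 105 CPM on low fat, and fell by 1.52 ± 0.18 (edgeR adjusted p = 0.000315). Cyp2c38 was at 13.14, 14.86 and 14.95 CPM on high fat and 31.3, 30.9 and 32.8 CPM on low fat, and fell by 1.15 ± 0.14. Cyp2b10 fell by 2.18 ± 0.29 (edgeR adjusted p = 0.000718), and no diet groups overlapped for any of the 4. Nor did they for some members that did not pass, such as Cyp2a5 and Cyp2f2, and the share of all genes was not counted.

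The 2 that rose in pull-down were Cyp2d9 and Cyp1a2. Cyp2d9 was at 677, 694 and 701 CPM on high fat and 504, 522 and 470 CPM on low fat, and rose by 0.47 ± 0.10 (edgeR adjusted p = 0.0142). Cyp1a2 was at 287, 318 and 317 CPM on high fat and 204, 263 and 209 CPM on low fat, and rose by 0.45 ± 0.12 (edgeR adjusted p = 0.0381), a call that ended in 10 of 21 alternative settings. An alternative fit used the replicate number as a block, although the labels do not say that a number pairs libraries across diets. There 17 of 33 members passed, 9 higher and 8 lower, with all 6 kept. In that fit 21% of all genes passed, 10.2% higher and 10.8% lower. The block added Cyp3a13 at 0.63, Cyp3a16 at 0.48, Cyp3a11 at 0.51 and Cyp3a59 at 1.14 among those that rose, with Cyp2c50 at 0.52, Cyp2c54 at 0.37 and Cyp2u1 at 0.45. It added Cyp2a5 at -0.42, Cyp2c67 at -0.46, Cyp2f2 at -0.25 and Cyp2d10 at -0.23 among those that fell. Without input low-fat library 1, which is not in this contrast but shares its estimate of spread, 16 members passed, 9 higher and 7 lower, against 17.7% of all genes.

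The diet change itself differed between fractions for Cyp2d9 and Cyp2c70, 1 higher and 1 lower, against 2.7% of all genes (1.57% higher and 1.12% lower). For Cyp2d9 the pull-down change minus the input change was 1.21 ± 0.14 (edgeR adjusted p = 0.00693), from a fall in input and a rise in pull-down. For Cyp2c70 it was -0.68 ± 0.14 (edgeR adjusted p = 0.0324): input rose, and pull-down, at 898, 891 and 1024 CPM on high fat and 860, 926 and 887 CPM on low fat, was at 0.07. The other 32 members did not pass. Among them, Cyp2c29, Cyp2c38, Cyp2c39 and Cyp2b10 were at 0.51 ± 0.19, -0.45 ± 0.19, -0.70 ± 0.25 and 0.44 ± 0.47. Without input low-fat library 1 the count was 14, 3 higher and 11 lower, with both calls kept, against 27% of all genes (11.8% higher and 15.2% lower). Leaving out pull-down low-fat library 3 gave 0 calls among the members and 0% of all genes.

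**Figure D5:**
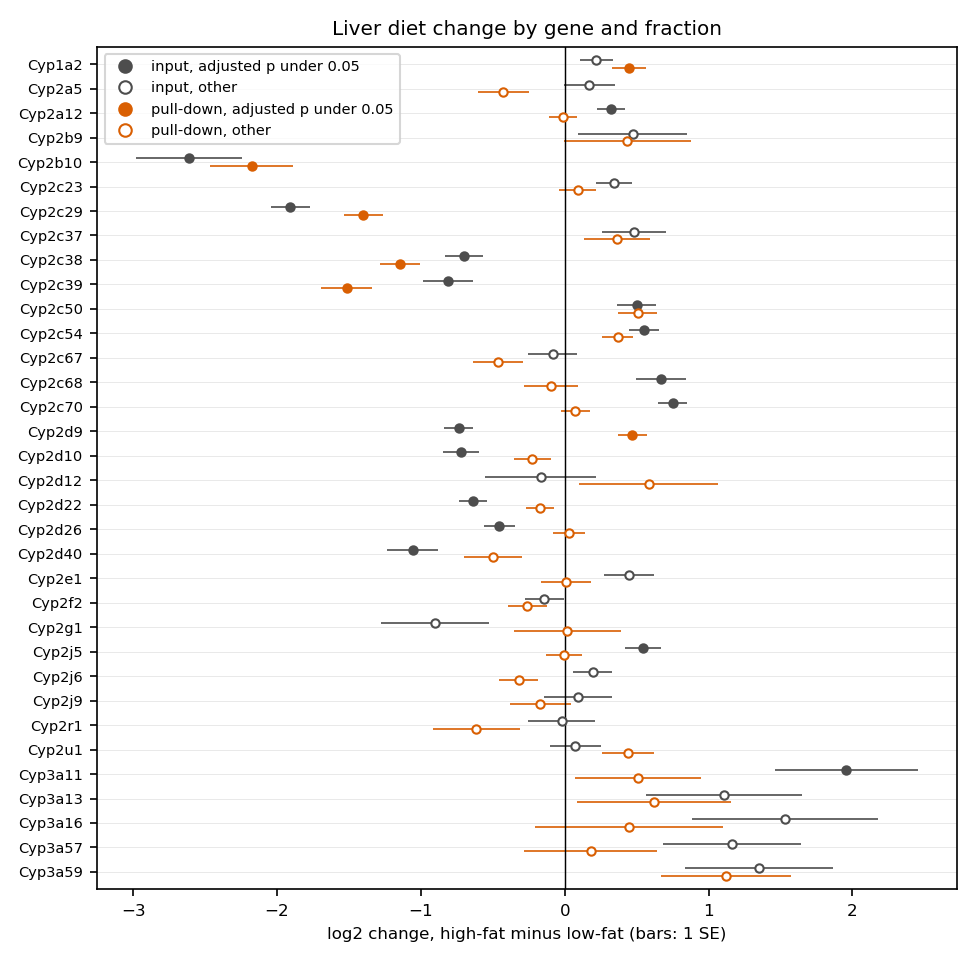
Log2 diet change (high fat minus low fat, bars of 1 SE) of each tested gene in liver input (grey) and pull-down (orange), with filled points for an edgeR adjusted p under 0.05. Cyp2b10, Cyp2c29, Cyp2c38 and Cyp2c39 lie below 0 and are filled in both fractions, and Cyp2d9 is filled on both sides of 0, at -0.74 in input and 0.47 in pull-down.

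In kidney, 0 of 26 members and 0% of 15023 genes passed edgeR's test between diets in input, in pull-down or for the difference between them. At an unadjusted p under 0.05 there were 4, 2 and 3 members in these tests, beside 17.2%, 4.78% and 13.1% of all genes. The fits with a replicate block also gave 0 calls in each. Cyp3a13 was at 1.93, 0.573 and 0.624 CPM in kidney input on high fat and 4.59 and 6.81 CPM on low fat, a change of -2.50 ± 0.51 (edgeR adjusted p = 0.129). The DESeq2 alternative called that gene alone among the members, at -2.51 ± 0.54 (DESeq2 adjusted p = 0.0022). Cyp2e1 was at -0.69 ± 0.29, Cyp2j9 at -0.56 ± 0.24 and Cyp2d26 at 0.63 ± 0.26 in input (edgeR adjusted p = 0.252, 0.256 and 0.247). Without input high-fat library 1, which stood apart, 6 members passed in input, 1 higher and 5 lower, and 17.8% of all genes passed (9.12% higher and 8.63% lower). Cyp2d26 then rose by 0.77, and Cyp2e1, Cyp2j7, Cyp3a16, Cyp3a13 and Cyp3a59 fell. Cyp2j7, Cyp3a16 and Cyp3a13 were at -1.60, -2.55 and -3.24, and Cyp3a59 had 0 counts in both remaining high-fat libraries and 2 and 9 on low fat.

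The electron partners of the P450 enzymes were lower in the liver pull-down for 5 of 6 and higher for 0. Their median was -0.81 on the log2 scale, and of all genes 36.1% were lower and 37.7% higher. Cyb5b, a cytochrome b5 of the outer mitochondrial membrane, fell by 1.03, Pgrmc2 by 1.30 and Pgrmc1, a haem-binding membrane protein, by 1.40. Between diets, 2 of 6 were lower on high fat in liver input, beside 13.6% of all genes. Cyb5r3, the cytochrome b5 reductase, was at -1.58 ± 0.19 (edgeR adjusted p = 0.000136). Por, the P450 reductase, was at -0.65 ± 0.15 (edgeR adjusted p = 0.00832). In the liver pull-down Cyb5r3 fell by 0.75 (edgeR adjusted p = 0.0297). In the kidney pull-down 3 of 6 were lower, beside 26.4% of all genes, with Cyb5a, the microsomal cytochrome b5, at -1.52 ± 0.15.

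Transcription factors and receptors that control P450 genes were mostly higher in the pull-down. Of 23 tested in liver, 18 were higher and 2 lower, with a median of 0.83, against 37.7% higher and 36.1% lower among all genes. Bcl6, a repressor of genes with sex-dependent expression, rose by 1.45, Foxa3 by 1.54, Cebpa, which drives hepatocyte genes, by 1.68 and Nr1h4, the bile acid receptor, by 0.83. In kidney 10 of 19 were higher and 1 lower, with a median of 0.52, against 26.6% higher and 26.4% lower among all genes. Those higher included Ppara at 1.32, Stat5b at 1.27 and Arnt at 1.15. Between diets in liver input, 1 of 23 was higher and 7 were lower on high fat, beside 8.87% and 13.6% of all genes. Cux2, a female-biased factor in liver, was at -4.57 ± 0.55 (edgeR adjusted p = 0.000173), Nr1h3 at -0.82, Ppargc1a at -1.29 and Foxa1 at 1.08. In the liver pull-down Cux2 was at -3.15, Ppargc1a at -1.93 and Foxa1 at 0.91, the 3 that passed. Of all genes, 2.85% were higher and 3.1% lower on high fat there.

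Among haem genes, 2 of 11 were higher and 8 lower in the liver pull-down, with a median of -0.87. Of all genes, 37.7% were higher and 36.1% lower there. Alas1, the rate-limiting enzyme of haem synthesis, rose by 1.15 and Cpox by 0.81, whereas Fech fell by 1.21 and Alad by 1.38. In liver input 3 rose and 3 fell with high fat, beside 8.87% and 13.6% of all genes. Alas1 was at -1.06 ± 0.10 (edgeR adjusted p = 3.06e-05) and Cpox at 0.88. In the liver pull-down Hmox1, the haem oxygenase, was the one that passed between diets, at 1.07 ± 0.27 (edgeR adjusted p = 0.0326). Of all genes, 2.85% were higher and 3.1% lower on high fat there.

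Several members are known to differ between the zones of the lobule or between the sexes. Of 9 pericentral genes, 2 were higher and 1 lower on high fat in liver input, and of 10 periportal genes 0 were higher and 6 lower, with medians of 0.14 and -0.69. Of 4 tested female-biased genes, which share Cux2 with the regulators, 3 were lower on high fat in input and 3 in pull-down. Acot3, a peroxisomal thioesterase, was at -3.14 ± 0.25 in input. Of 11 male-biased genes, 4 were higher and 2 lower in input and 3 were higher in pull-down, with Selenbp2 at 2.71 and Cyp7b1, an oxysterol hydroxylase, at 1.23 in pull-down. P450 genes of other families counted 4 higher and 6 lower in input and 3 higher and 5 lower in pull-down. How many of them were tested is not given here, so these counts are not set against the shares of all genes. By symbol this list shares Cyp7b1, Cyp4a12a and Cyp4a12b with the male-biased list and Cyp4a10 with the female-biased one. Of all genes tested, 8.87% were higher and 13.6% lower in input, and 2.85% higher and 3.1% lower in pull-down. These markers changed with the same diets as the members, and their part in the members' changes was not tested.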

How the data were processed

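Raw read counts per gene and library were used as deposited. The authors aligned reads with STAR to mm10 and made the counts with HTSeq, per the submitters' processing notes. The sources used here do not give tool versions, whether strand was used, or how reads matching several genes were treated. Depths are given above, and floors of 3 counts over a group cover counting error only. Counts were tested with edgeR 4.0.16 (R 4.3.3, limma 3.58.1): TMM scaling, filterByExpr (minimum count 10, total 15), quasi-likelihood F tests and Benjamini-Hochberg adjustment over all tested features at 0.05. Each tissue had 1 fit over its 4 groups, and comparisons between tissues used 1 fit over all 22 libraries. An SE is the log2 change divided by the square root of F. DESeq2 1.42.0 was an alternative. The fits were tested on simulated counts.

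Members and lists were chosen with earlier results of these data known. The rule for values took the 12 members of highest mean CPM in input of each tissue and every member called in a diet comparison. It also took every Cyp3a gene and members whose pull-down change opposed their subfamily. For some of these the text gives only a level or only a log2 change, as for Cyp2c54, Cyp2c68 and Cyp2d40. CPM stood in for the planned length-scaled level, since transcript lengths were not used here, and so the alternatives with coding length or pull-down libraries for that level were not run. From each list at most 4 genes per comparison were named, by smallest adjusted p; 1 gene that this rule names is not reported here.

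The labels do not say that replicate numbers pair libraries, so the main fits had no block and the block was an alternative. Across diets in the liver pull-down, deviations of same-numbered libraries from their group means were correlated over 4771 genes with a mean of at least 100 counts. The values were 0.262, 0.327 and 0.301, and being read from the same data they do not show that the numbers pair libraries. Over all 10865 genes tested the deviations correlated at 0.11, 0.115 and 0.0996, so the last pair's value fell short of 0.1 there. Promoters came from RefSeq (GRCm38.p6) and were compared with Biopython 1.88.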

Additional observations from a re-analysis of the deposited data

Results flagged for a closer look

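The diet change differed between liver fractions, by the test of the difference itself, for Cyp2d9 at 1.21 and Cyp2c70 at -0.68 on the log2 scale, pull-down minus input. The pull-down change differed between tissues, liver minus kidney, for Cyp2b9 at -3.00, Cyp3a59 at -2.37, Cyp2f2 at -2.04, Cyp3a13 at -1.79, Cyp2d12 at -1.35, Cyp2j6 at -1.06 and Cyp2d22 at -0.61.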

How the results depend on the processing

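No called member changed sign under any alternative run. Members called under every alternative numbered 28 of 31 in the liver pull-down, 0 of 16 between diets in liver input, 4 of 6 between diets in liver pull-down, 11 of 16 in the kidney pull-down, 3 of 7 in the tissue difference of pull-down and 37 of 40 in input level. Leaving out 1 library at a time gave 29 to 32 calls in the liver pull-down, 14 to 27 for diet in liver input, 4 to 16 for diet in liver pull-down, 0 to 14 for the difference between them, 13 to 19 in the kidney pull-down, 0 to 6 for diet in kidney input, 0 to 0 in kidney pull-down, 0 to 4 for their difference, 4 to 9 for the tissue difference and 40 to 41 for input level.

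Testing subfamilies summed gave 9 calls in the liver pull-down, 8 in the kidney pull-down, 2 for diet in liver input, 3 in liver pull-down, 1 for their difference, 2 for the tissue difference and 14 for input level. The replicate block gave 0 calls for diet in liver input, 17 in liver pull-down, 0 for their difference and 3 for the tissue difference; in liver input the deviations of same-numbered libraries correlated at -0.363, -0.470 and 0.271. In kidney, with 2 pairs, they correlated at 0.443 and 0.526 in input and 0.266 and 0.0803 in pull-down, too few to judge a pairing. The block gave 0 diet calls there. Fitting the liver pull-down diet groups alone gave 13 calls. With both close pairs summed, the counts were 10 for diet in liver input, 0 for the difference between fractions and 4 for the tissue difference; with the low-fat pair alone summed, the last 2 counts were 1 and 4. No filter on low counts gave 4 calls for the liver difference between fractions, 1 for diet in kidney input and 1 for the kidney difference, and DESeq2 gave 6 and 1 for the first pair. Library totals gave 4 calls for the tissue difference and moved the median of all genes in the liver pull-down from 0.02 to 0.27 and in the kidney pull-down from 0.01 to 0.23. A mean of at least 10 CPM gave 9 calls in the kidney pull-down. The cause of these shifts was not tested. Call counts in this section are given without the share of all genes that passed in the same fit. That share also moved between settings, as given above for the liver diet comparisons, so the counts alone are not results about the members. Length-scaled levels, by coding length or in pull-down libraries, were not run.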
